A study of Mus musculus with 6 samples.

Results

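The genes described here encode the chaperones and enzymes that fold proteins in the endoplasmic reticulum (ER), the machinery that removes misfolded proteins from it, and the sensors and effectors of the ER stress response. They were taken by symbol from a fixed list of 33 genes, and all 33 had a row among the 23491 gene symbols measured. By role, 14 are folding genes, 7 belong to ER-associated degradation, 2 to the translocon, 4 are stress sensors or their factors, and 6 form the Atf4 branch (Atf4, Ddit3, Trib3, Asns, Chac1 and Ppp1r15a). RNA was sequenced from microglia, the resident macrophages of the brain, enriched from mouse cerebellum with beads against CD11b, a surface protein that neutrophils, monocytes and other macrophages also carry. Every mouse carried the genotype labelled Fmr1 knock out, a model of fragile X syndrome, so the controls share that label and there is no wild-type group. The control mice received saline (3 libraries, titled sham) and the others (3 libraries) were injected intraperitoneally with poly(I:C), an artificial RNA duplex used to imitate infection by a virus. The sources used here give neither the allele, age, sex, dose nor interval after injection. They also do not say whether each library is 1 animal, so p-values measure only the spread between these libraries, which may be technical.

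Secretory and membrane proteins enter the ER through the translocon and fold there with help from Hsp70- and Hsp90-type chaperones, lectin chaperones that hold glycoproteins, and disulfide isomerases that pair cysteines. Proteins that fail to fold are sent back to the cytosol for degradation. The sensors, encoded by Ern1 (IRE1), Atf6 and Eif2ak3 (PERK), watch over this balance: Atf6 and the Ern1 target Xbp1 switch on chaperone and degradation genes, whereas Eif2ak3 phosphorylates eIF2 alpha and thereby favours translation of Atf4, which switches on amino acid supply and stress genes. Other eIF2 alpha kinases, among them the double-stranded RNA sensor Eif2ak2 (PKR), feed into the same Atf4 arm. Calr and Pdia3 also take part in loading peptides onto MHC class I.

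The 2 arms are known for different promoter elements, and these are shown so that the folding and Atf4 branch genes can be compared by them. The ER stress element searched for was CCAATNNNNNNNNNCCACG, known to be bound by Atf6 and Xbp1 with NF-Y, and the element of the Atf4 arm was TGATGNAA. Both were searched on both strands in RefSeq promoter windows of 300 bases, 250 before and 50 after the annotated start (GRCm38.p6, whereas the reads were aligned to GRCm39), which 29 of the 33 genes matched by symbol. The ER stress element was present in 39 of 32851 promoter windows, or 0.119%. A gene can have several windows, and counted by gene the element was present in 37 of 27025. Of the 29 genes, 9 held it: the folding genes Hspa5, Hsp90b1, Dnajc3, Pdia6, Calr, Canx and Creld2, and the degradation genes Syvn1 and Derl3. Hsp90b1 held it 2 times. A shorter variant, ATTGGNCCACG, stood in 0.0365% of windows and in those of Dnajb11 and Herpud1, neither of which held the longer element. The matches that lie before the start, which leaves out that of Dnajb11, are printed 5′ to 3′ on the strand of the gene, with 20 bases on each side and the fixed letters of the element in capitals. Where the element lies on the opposite strand, its letters read as the reverse complement.
Hspa5 (chr2:34772005-34772063, plus strand): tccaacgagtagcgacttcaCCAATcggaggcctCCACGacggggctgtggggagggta
Hsp90b1, farther match (chr10:86705618-86705676, minus strand): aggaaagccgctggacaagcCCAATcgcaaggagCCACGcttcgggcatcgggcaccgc
Hsp90b1, nearer match (chr10:86705513-86705571, minus strand): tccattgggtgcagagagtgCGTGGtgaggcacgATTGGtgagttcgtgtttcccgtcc
Dnajc3 (chr14:118937807-118937865, plus strand): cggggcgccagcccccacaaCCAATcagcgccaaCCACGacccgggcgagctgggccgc
Pdia6 (chr12:17266471-17266529, plus strand): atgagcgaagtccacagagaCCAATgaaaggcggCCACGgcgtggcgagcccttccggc
Calr (chr8:84847055-84847113, minus strand): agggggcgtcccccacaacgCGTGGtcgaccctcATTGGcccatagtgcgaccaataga
Canx (chr11:50325780-50325838, minus strand): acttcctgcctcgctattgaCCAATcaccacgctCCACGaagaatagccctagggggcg
Creld2 (chr15:88819500-88819558, plus strand): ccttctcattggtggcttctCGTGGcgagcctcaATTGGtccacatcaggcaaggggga
Syvn1 (chr19:6046512-6046570, plus strand): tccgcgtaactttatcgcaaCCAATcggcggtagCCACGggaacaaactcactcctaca
Herpud1, shorter variant (chr8:94386357-94386407, plus strand): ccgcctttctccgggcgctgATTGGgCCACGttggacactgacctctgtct
Derl3 (chr10:75893222-75893280, plus strand): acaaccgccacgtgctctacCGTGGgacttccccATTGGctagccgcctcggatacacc

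The Atf4-arm element TGATGNAA is short and common, and was present in 3.97% of all promoter windows. Among the 29 genes it was found in Trib3, Asns and Chac1 of the Atf4 branch and in Herpud1. The match of Trib3 lies after the start and is not printed. None of the 6 Atf4 branch genes held the ER stress element or its shorter variant. A match is a description of the letters in the window, not evidence of binding. The same layout is used, with fewer bases after the Asns match because the start is near.
Asns (chr6:7693210-7693252, minus strand): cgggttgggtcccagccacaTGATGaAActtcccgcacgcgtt
Chac1 (chr2:119351029-119351076, plus strand): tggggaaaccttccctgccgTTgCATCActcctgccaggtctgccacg
Herpud1 (chr8:94386297-94386344, plus strand): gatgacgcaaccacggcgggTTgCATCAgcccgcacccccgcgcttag

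Libraries held between 33710545 and 34899835 counts. Values are CPM, the counts relative to a library's total, scaled for library composition. In this series 14727 genes had enough counts to be tested, and 32 of the 33 ER genes were among them, Chac1 being too low. Fmr1 reads were present in every library, at 37.8 to 40.5 CPM in saline and 43.9 to 62.6 CPM in poly(I:C), and without a wild-type group they check neither genotype nor labels. The 8 interferon response genes such as Ifit1, Ifit3 and Irf7 summed to between 136 and 228 CPM in saline and between 1060 and 1510 CPM in poly(I:C). Markers of microglia such as P2ry12, Tmem119 and Cx3cr1 summed to between 35700 and 51600 CPM over 15 genes in all libraries. The first library of each group stood apart. Saline replicate 1 had 24700 CPM of 15 neutrophil genes such as S100a8, S100a9 and Ly6g, against 4020 to 4040 CPM in the other saline and 1860 to 3510 CPM in the poly(I:C) libraries. Poly(I:C) replicate 1 had 19800 CPM of 13 choroid plexus genes such as Ttr, Folr1 and Kcnj13, against 7790 and 9470 CPM in the other poly(I:C) libraries and 4050 to 8660 CPM in saline. No listed marker of either cell type was at 0 in all libraries. Of the neutrophil list 0 of 15 genes were called, where 0.0747% of all tested genes were called lower. All 15 had a negative log2 difference, with a median of −2.76. In 6 of them every poly(I:C) library lay below every saline library, as in 14.3% of all tested genes. Of the choroid plexus list 0 of 13 were called, where 0.883% of all tested genes were called higher. Of these, 12 were positive, the median was 1.27, and 4 lay above, as did 14.0% of all tested genes. Marker sums of border-associated macrophages, endothelium, astrocytes, oligodendrocytes and immediate early genes overlapped between the groups. Markers of plasma and B cells such as Cd79a and Cd79b, cells rich in ER when they secrete antibody, summed to 50.0 to 76.8 CPM in saline and 43.2 to 59.8 CPM in poly(I:C).

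All 14 folding genes had a higher mean level with poly(I:C) than with saline, by 1.10-fold (Dnajb9) to 1.65-fold (Hsp90b1), while the tested Atf4 branch genes lay on both sides of 0. In 13 of the 14 folding genes every poly(I:C) library lay above every saline library, a pattern shown by 14.0% of all tested genes. Only Pdia6 passed the test across all genes (edgeR quasi-likelihood, Benjamini-Hochberg adjusted p under 0.05), where 0.883% of tested genes were called higher and 0.0747% lower. The median log2 difference was 0.48 for the 14 folding genes and 0.36 for the 23 folding, degradation and translocon genes together. It was −0.063 for the 5 tested Atf4 branch genes and 0.0098 for all tested genes. The difference between these medians was not tested. In these bulk samples a shift in the share of cells of a type and a shift in RNA per cell cannot be told apart.

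**Figure D1:**
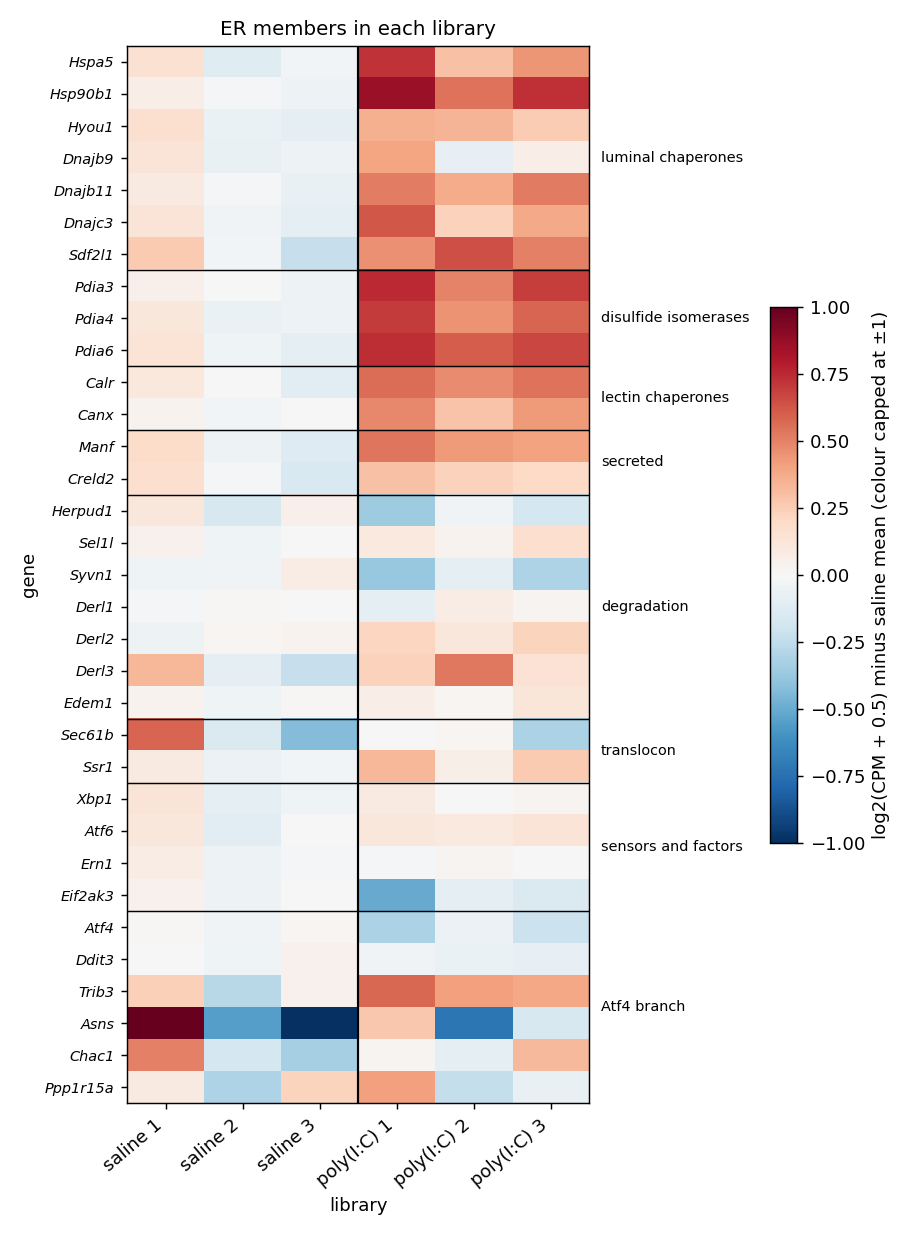
Level of each of the 33 ER genes (rows, grouped by role) in each of the 6 libraries (columns), as log2(CPM + 0.5) minus the mean of the saline libraries, with colour capped at ±1. The folding genes at the top are mostly red in the poly(I:C) columns, with medians of 0.55, 0.40 and 0.47 in poly(I:C) replicates 1, 2 and 3, whereas the lower blocks are pale or mixed.

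Disulfide isomerases, which form and rearrange the bonds between cysteines, were among the folding genes with the largest differences. Pdia6 stood at 417, 368 and 355 CPM in saline replicates 1, 2 and 3 and at 635, 578 and 604 CPM in the 3 poly(I:C) libraries in the same order. The groups were well apart, and Pdia6 rose 1.59-fold, from 380 ± 33 to 606 ± 28.2 CPM (SD, n = 3 each). Its log2 difference was 0.67 (SE 0.098, edgeR adjusted p = 0.0331). Pdia3, which works on glycoproteins with the lectin chaperones, stood at 858, 832 and 801 CPM in saline and at 1395, 1170 and 1338 CPM in poly(I:C). Its groups did not overlap either, with a log2 difference of 0.65 (SE 0.11) that missed the threshold (edgeR adjusted p = 0.0531). Pdia4 stood at 228, 201 and 203 CPM in saline and at 342, 288 and 315 CPM after poly(I:C), and its log2 difference was 0.58 (SE 0.098, edgeR adjusted p = 0.0592). All 3 isomerases had their lowest poly(I:C) value in replicate 2, still above the highest saline value.

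The call of Pdia6 remained without saline replicate 1 (edgeR adjusted p = 0.0354) and was lost without any one of the other 5 libraries, with the adjusted p reaching 0.215. The log2 difference of Pdia6 in these 6 fits lay between 0.62 and 0.74.

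Among the luminal chaperones, Hsp90b1 (GRP94), the Hsp90 of the ER, had the largest difference of the folding genes. It stood at 1313, 1241 and 1210 CPM in saline and at 2285, 1829 and 2085 CPM in poly(I:C). The groups were separate and the log2 difference was 0.72 (SE 0.12, edgeR adjusted p = 0.0575), 1.65-fold. Hspa5 (BiP), the Hsp70 of the ER, whose release from the sensors is a textbook trigger of the stress response, stood at 1294, 1073 and 1145 CPM in saline and at 1927, 1429 and 1588 CPM in poly(I:C). Its poly(I:C) values were widely spread, with replicate 1 highest, and the log2 difference of 0.49 (SE 0.15) had an edgeR adjusted p of 0.166. Hyou1, the large Hsp70-like exchange factor for Hspa5, was at 270 ± 27.2 and 335 ± 12.5 CPM (SD, n = 3 each, log2 0.31).

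J-domain proteins steer Hspa5 to its clients. Of these, Dnajb11 stood at 136, 127 and 121 CPM in saline and at 183, 166 and 184 CPM after poly(I:C), with little spread in either group and a log2 difference of 0.47 (SE 0.083, edgeR adjusted p = 0.0674). Dnajc3, which also restrains eIF2 alpha kinases, was at 143 ± 11.4 and 192 ± 26.7 CPM, and Sdf2l1, a partner of Dnajb11, at 107 ± 18.5 and 153 ± 10.6 CPM (SD, n = 3 each). Their log2 differences were 0.42 and 0.52, with edgeR adjusted p of 0.161 and 0.141. Dnajb9, a classical Xbp1 target, was the folding gene whose groups overlapped. It stood at 74.5, 64.4 and 65.4 CPM in saline and at 89.3, 64.2 and 71.4 CPM in poly(I:C) (log2 0.14, SE 0.14, edgeR adjusted p = 0.560).

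Both lectin chaperones, which bind sugar-tagged folding intermediates, showed groups that did not overlap. Calr, the soluble one, stood at 1294, 1197 and 1115 CPM in saline and at 1772, 1661 and 1744 CPM in poly(I:C). Canx, its membrane-bound relative, stood at 705, 674 and 687 CPM in saline and at 958, 840 and 923 CPM in poly(I:C). Their log2 differences were 0.52 (SE 0.11) and 0.40 (SE 0.093), and neither passed (edgeR adjusted p = 0.0949 and 0.123). Manf and Creld2 encode secreted proteins that are induced by ER stress. Manf, a factor that binds Hspa5, was at 139 ± 16.3 and 190 ± 9.40 CPM, and Creld2 at 68.0 ± 7.72 and 80.2 ± 2.88 CPM (SD, n = 3 each), with log2 differences of 0.45 and 0.24 and edgeR adjusted p of 0.120 and 0.233.

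**Figure D2:**
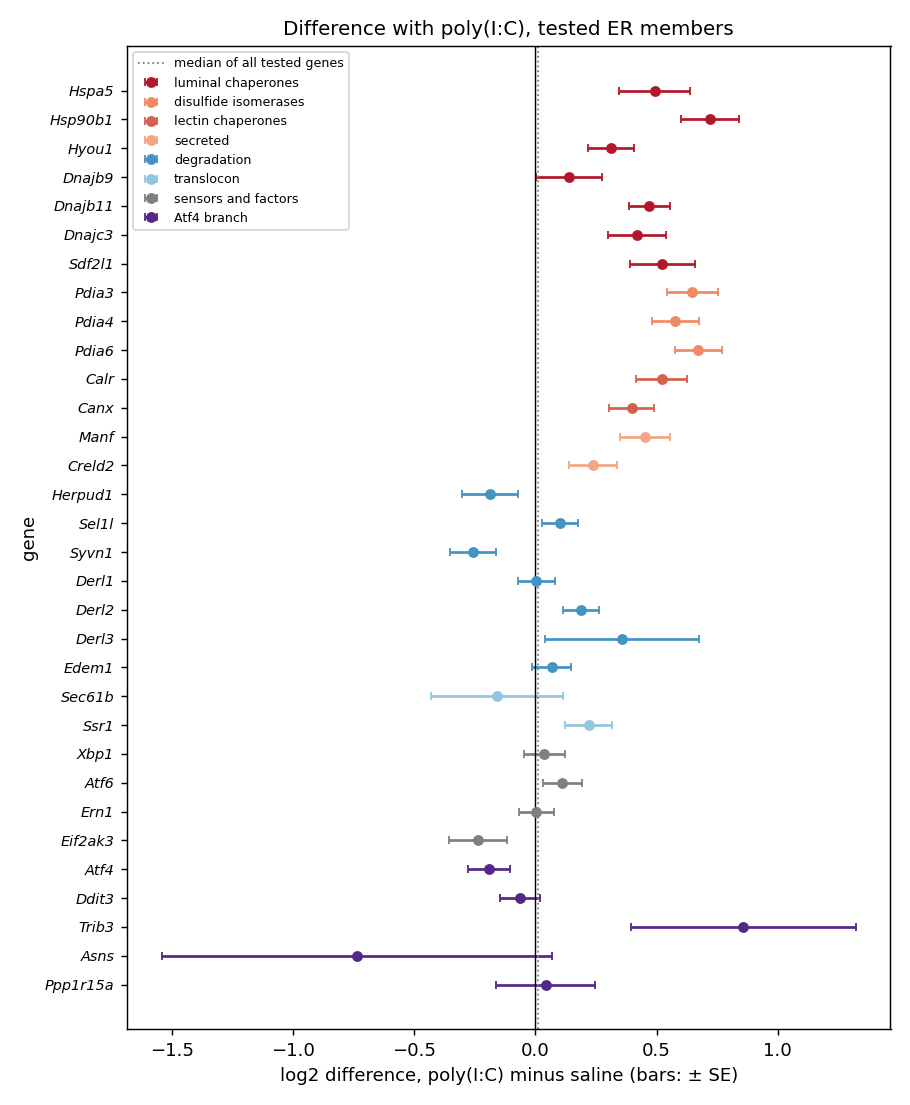
Log2 difference between poly(I:C) and saline (horizontal axis, points) with its standard error (bars) for the 32 tested ER genes, coloured by role; the dotted line is the median of all tested genes. The 14 folding genes lie to the right of 0, from 0.14 to 0.72, and the other roles fall on both sides of 0.

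How far these values depend on the 2 libraries that stood apart can be read from the folding genes themselves. Saline replicate 1, with the high neutrophil sum, was the highest saline library for 14 of the 14 folding genes, and poly(I:C) replicate 1, with the high choroid plexus sum, was the highest poly(I:C) library for 12 of 14. Without saline replicate 1 the median log2 difference of the folding genes was 0.55, without poly(I:C) replicate 1 it was 0.45, and without both it was 0.52. In the absence of both, the groups of 13 folding genes did not overlap, against 25.3% of tested genes with poly(I:C) above saline. Leaving out libraries cannot undo a separation seen with all of them. This count therefore could not fall, and it does not show how far the values depend on those libraries. In that fit 8 ER genes were called higher by edgeR (Calr, Dnajb11, Hsp90b1, Manf, Pdia3, Pdia4, Pdia6 and Sdf2l1), where 2.40% of tested genes were called higher and 1.45% lower. The neutrophil sum was lower in every poly(I:C) library than in every saline library, also with saline replicate 1 set aside, and the choroid plexus sums of the remaining libraries overlapped between the groups. The part of either cell type in the folding genes' values was not tested, and these fits do not test it.

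ER-associated degradation genes had no common direction. Of 7 genes 0 were called, 5 had a positive and 2 a negative difference, and the median log2 difference was 0.067. Over all tested genes 0.883% were called higher and 0.0747% lower. Syvn1 (HRD1), the ubiquitin ligase at the core of this machinery, stood at 132, 133 and 144 CPM in saline and at 105, 127 and 110 CPM in poly(I:C). Every poly(I:C) value was below every saline value, as in 14.3% of all tested genes, and the log2 difference was −0.26 (SE 0.095, edgeR adjusted p = 0.204). Herpud1, a membrane protein of the same complex and a sensitive stress target, stood at 177, 146 and 169 CPM in saline and at 128, 160 and 144 CPM in poly(I:C), with overlapping groups (log2 −0.19, edgeR adjusted p = 0.358). Sel1l, the partner of Syvn1, was at 218 ± 6.66 and 234 ± 10.5 CPM, and Edem1, which acts on misfolded glycoproteins, at 437 ± 12.3 and 458 ± 15.7 CPM (SD, n = 3 each).

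The Derlins are channel proteins of this pathway. Derl2 was at 65.0 ± 2.07 and 74.0 ± 3.07 CPM (SD, n = 3 each), with groups that did not overlap and a log2 difference of 0.19 (edgeR adjusted p = 0.220). Derl1 was at 212 ± 1.48 and 213 ± 12.8 CPM, and the sign of its difference turned with the scaling. Derl3 had few reads, with counts of 85, 62 and 54 in the saline libraries against 84, 103 and 77 after poly(I:C), which overlap. Of the promoters printed above, those of Syvn1 and Derl3 hold the ER stress element like those of Hspa5 and Hsp90b1. Of the 9 genes with the element only Pdia6 was called, where 0.883% of all tested genes were called higher and 0.0747% lower. Whether the element has a part in that call was not tested.

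Translocon genes and stress sensors also stayed below the threshold. Ssr1, a subunit of the translocon-associated complex, was at 202 ± 11.2 and 235 ± 22.7 CPM, and Sec61b, a subunit of the channel, at 20.9 ± 8.15 and 18.7 ± 2.42 CPM (SD, n = 3 each). Sec61b had its highest value, 30.1 CPM, in saline replicate 1, and its log2 difference turned from −0.16 to 0.19 without that library. Xbp1 stood at 274, 236 and 244 CPM in saline and at 266, 251 and 256 CPM in poly(I:C), fully overlapping (log2 0.037, SE 0.086, edgeR adjusted p = 0.817). Gene counts do not separate the spliced from the unspliced Xbp1 transcript, so they do not report on Ern1 activity. Ern1 was at 69.1 ± 3.10 and 69.3 ± 0.95 CPM and Atf6 at 121 ± 9.63 and 131 ± 1.59 CPM (SD, n = 3 each). Eif2ak3 stood at 72.8, 68.2 and 70.7 CPM in saline and at 49.7, 66.2 and 63.8 CPM in poly(I:C), all below saline, with a log2 difference of −0.24 (SE 0.12, edgeR adjusted p = 0.289).

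**Figure D3:**
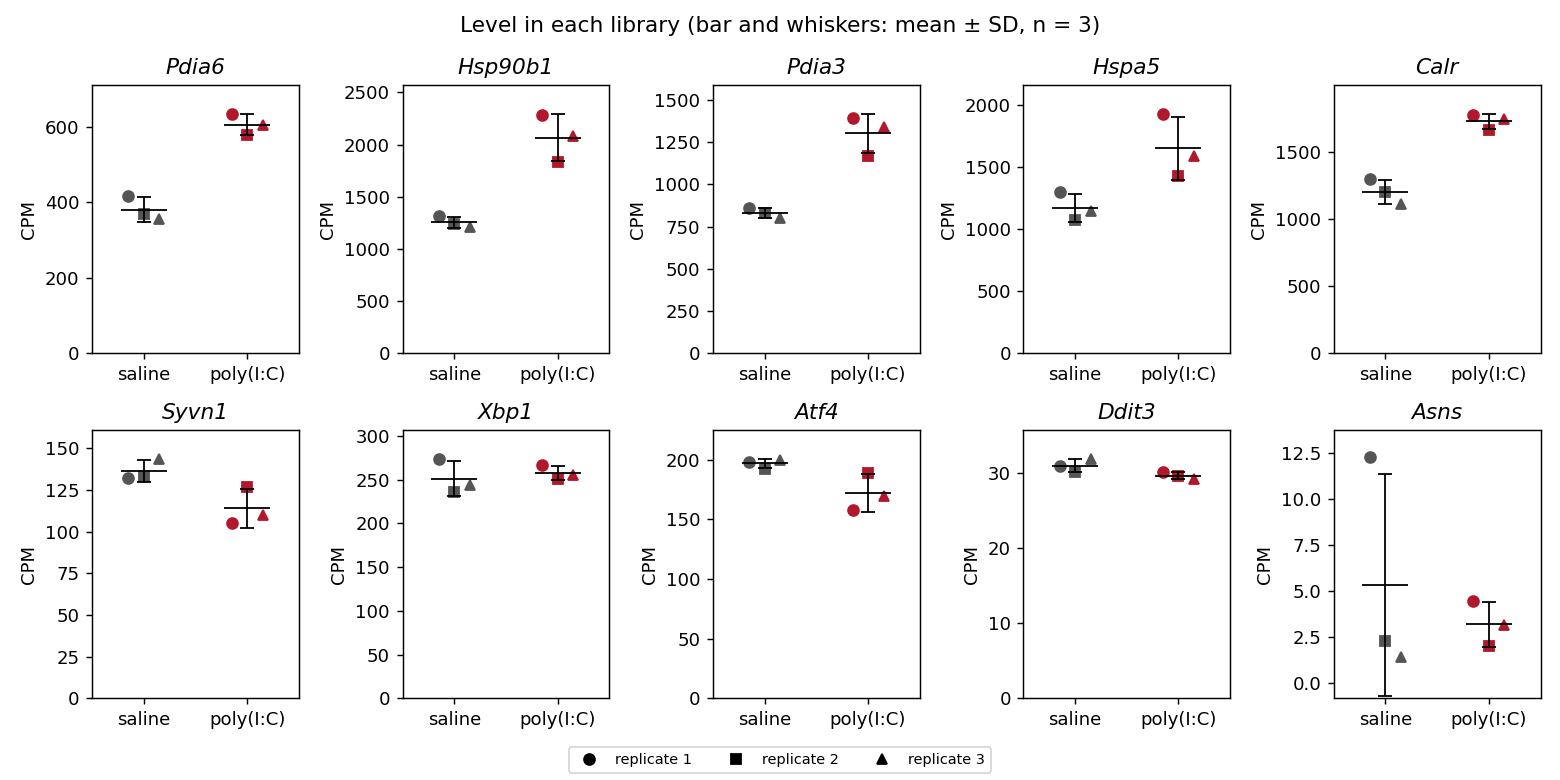
CPM (vertical axes, linear, starting at 0 except for Asns, whose axis extends below 0 to hold its error bar) of 10 ER genes in each library, with circles, squares and triangles for replicates 1, 2 and 3 and the mean ± SD as bar and whiskers. Pdia6, Hsp90b1, Pdia3, Hspa5 and Calr separate by treatment, Syvn1 and Atf4 lie lower in all 3 poly(I:C) libraries, Xbp1 and Ddit3 overlap, and Asns is set by 1 saline library at 12.3 CPM.

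In the Atf4 branch 0 of 5 tested genes were called in either direction, 2 had a positive and 3 a negative difference. Over all tested genes 0.883% were called higher and 0.0747% lower, so 0 calls among 5 genes do not set the branch apart. Atf4 itself, the transcription factor of the branch, stood at 198, 192 and 200 CPM in saline and at 158, 189 and 169 CPM in poly(I:C). The poly(I:C) values were all lower, by a log2 difference of −0.19 (SE 0.088, edgeR adjusted p = 0.258). Atf4 is regulated mainly through translation, which these counts do not measure. Ddit3 (CHOP), its partner and a promoter of cell death, stood at 30.9, 30.1 and 31.9 CPM in saline and at 30.2, 29.6 and 29.2 CPM in poly(I:C). The SD was 0.88 CPM with saline and 0.50 CPM with poly(I:C), and the log2 difference was −0.063 (SE 0.083, edgeR adjusted p = 0.666). Ppp1r15a (GADD34), which returns eIF2 alpha to its unphosphorylated state, stood at 163, 124 and 179 CPM in saline and at 204, 130 and 146 CPM in poly(I:C), overlapping and of unstable sign (log2 0.042, SE 0.20, edgeR adjusted p = 0.917).

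The remaining Atf4 targets were scarce. Asns, asparagine synthetase, gave counts of 404, 79 and 48 in the saline libraries against 156, 67 and 110 after poly(I:C), and the library with 404 was saline replicate 1, which also carried the neutrophil transcripts. Its log2 difference of −0.74 (SE 0.81) turned to 0.77 without that library, and the part of the neutrophil transcripts in this value was not tested. Trib3, a pseudokinase that dampens Atf4, gave counts of 18, 8 and 14 in the saline libraries against 29, 23 and 23 after poly(I:C). Its poly(I:C) libraries lay above the saline ones at under 1 CPM throughout, with a log2 difference of 0.86 (SE 0.46, edgeR adjusted p = 0.311). Chac1, which breaks down glutathione, gave counts of 13, 2 and 0 in the saline libraries against 5, 3 and 10 after poly(I:C) and was not tested. The count of 0 in saline replicate 3 allows up to 0.0860 CPM before composition scaling, and this limit covers counting error only.

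**Figure D4:**
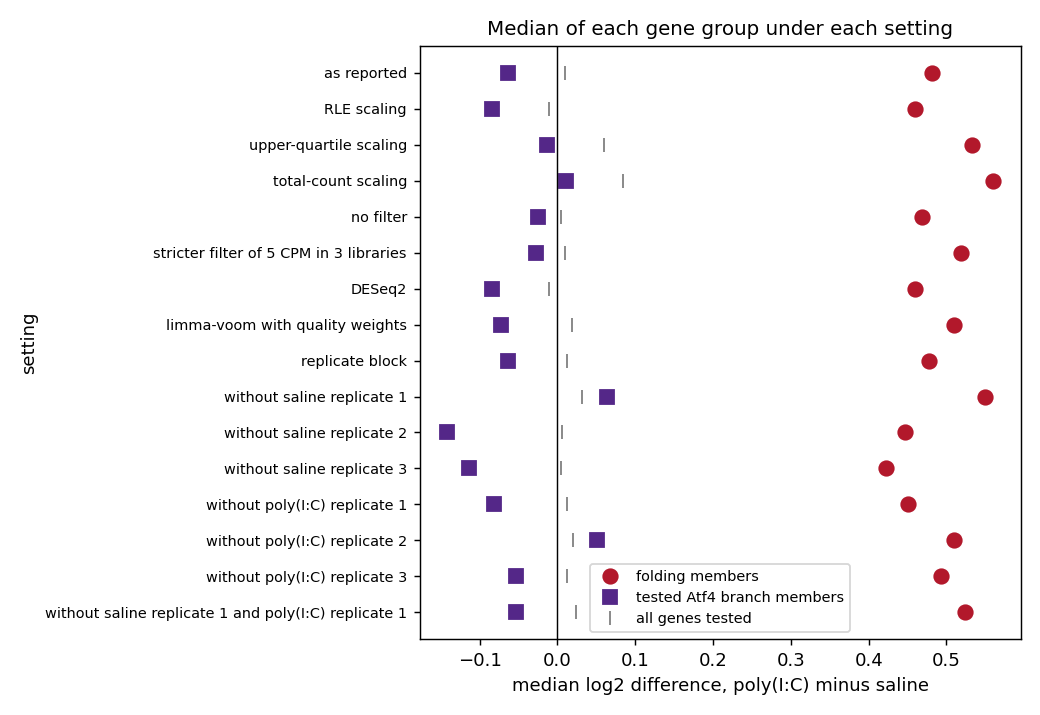
Median log2 difference between poly(I:C) and saline (horizontal axis) of the 14 folding genes (circles), the tested Atf4 branch genes (squares) and all tested genes (ticks) under each way of processing the counts (vertical axis). The folding median stays between 0.42 and 0.56, and the Atf4 branch median lies between −0.14 and 0.064, on both sides of 0.

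Other tools called more of the folding genes and none of the Atf4 branch. DESeq2 called 11 of the 32 tested genes higher and 0 lower, where it called 3.93% of tested genes higher and 3.85% lower. The 11 were Hspa5, Hsp90b1, Dnajb11, Dnajc3, Sdf2l1, Pdia3, Pdia4, Pdia6, Calr, Canx and Manf, all folding genes. Trib3 of the Atf4 branch was given no adjusted p by DESeq2 and so could not be called by it. With limma-voom and sample quality weights 14 were higher, the same 11 with Hyou1, Creld2 and Ssr1, and Syvn1 was lower, where 8.61% of tested genes were called higher and 10.9% lower. At an unadjusted p under 0.05 in edgeR, 15 ER genes passed, namely 13 folding genes and Derl2 as higher and Syvn1 as lower, against 10.5% of tested genes higher and 10.8% lower.

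Per kilobase of exon, the 6 most abundant of the ER genes in saline libraries were all folding genes. Lengths are the merged exons of GENCODE M21 (GRCm38), which may differ from the annotation the authors counted on. In saline, Calr stood at 550 ± 41.0 CPM per kilobase, followed by Hsp90b1 at 444 ± 18.7 (SD, n = 3 each). Hspa5 at 312 ± 30.0 and Pdia3 at 300 ± 10.3 CPM per kilobase came next and did not differ beyond their spread. Pdia6 and Canx followed at 175 ± 15.2 and 161 ± 3.60 CPM per kilobase. Atf4 at 114 ± 2.25 and Xbp1 at 105 ± 8.45 CPM per kilobase led the regulators, and Ern1 was the lowest of the sensors at 8.47 ± 0.38 CPM per kilobase. Asns, Derl3, Trib3 and Chac1 made up the bottom of the order, the last at 0.092 ± 0.13 CPM per kilobase.

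Further genes of the pathway, from lists by role, are given by count and by some of the genes with the smallest p. Of 28 other tested folding enzymes 0 were called, 7 had poly(I:C) libraries all above saline and 0 all below, where 14.0% and 14.3% of all tested genes did. Calls over all tested genes were 0.883% higher and 0.0747% lower. Pdia5, another disulfide isomerase, was at 29.3 ± 3.87 and 39.8 ± 2.64 CPM, and Erp44, which retains enzymes in the early secretory pathway, at 57.6 ± 3.36 and 78.2 ± 13.6 CPM (SD, n = 3 each). Cnpy4, of a family of ER proteins that help fold immune receptors, was at 25.3 ± 1.24 and 31.1 ± 0.91 CPM (log2 0.30, edgeR adjusted p = 0.171). Among 21 other degradation genes 0 were called, 2 lay above and 7 below. In the translocation and signal peptide list 0 of 29 were called and 5 lay above and 1 below, with the signal peptidase subunits Spcs3 and Spcs2 at log2 differences of 0.39 and 0.26. The list of other sensors and regulators had 0 of 14 called, with 1 above and 1 below.

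On the eIF2 alpha side, Eif2ak2 was the only called gene of 9 in the list of kinases and their partners. Eif2ak2 stood at 58.2, 50.7 and 49.9 CPM in saline and at 298, 212 and 270 CPM in poly(I:C), a 4.92-fold rise (log2 2.30, SE 0.15, edgeR adjusted p = 0.00108). Its gene is induced by interferon. Of 40 other tested Atf4 and amino acid response genes, 0 were called higher and 1 was called lower, 1 lay above and 7 below, and the median log2 difference was −0.069. Over all tested genes 0.883% were called higher and 0.0747% lower, 14.0% lay above and 14.3% below. The called gene was Ddit4, an inhibitor of mTOR signalling that also responds to glucocorticoids and low oxygen. Ddit4 stood at 184, 168 and 238 CPM in saline and at 41.0, 70.9 and 44.3 CPM after poly(I:C), and fell by 1.92 on the log2 scale (SE 0.24, edgeR adjusted p = 0.0183). The call of Ddit4 was lost without saline replicate 3, poly(I:C) replicate 1 or poly(I:C) replicate 3 (edgeR adjusted p of 0.0801, 0.0615 and 0.127). Sesn2, another stress-responsive inhibitor of mTOR, was at 20.5 ± 2.59 and 13.4 ± 1.22 CPM (SD, n = 3 each), with groups apart and a log2 difference of −0.62 (SE 0.14, edgeR adjusted p = 0.121). Cebpb, a factor that pairs with Atf4, was at 231 ± 61.5 and 126 ± 19.6 CPM (log2 −0.88, edgeR adjusted p = 0.131). Vldlr, a lipoprotein receptor, had overlapping groups at 6.59 ± 3.78 and 18.7 ± 12.9 CPM and a positive difference (log2 1.51, SE 0.57, edgeR adjusted p = 0.210), which was 0.80 without poly(I:C) replicate 1. With DESeq2 the difference passed for Sesn2 and Cebpb, at adjusted p of 0.00641 for Sesn2 and 0.00332 for Cebpb.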

How the data were processed

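The authors deposited whole read counts per gene symbol for each library, without normalisation. Build GRCm39 and the tools HISAT2, HTSeq and fastp come per the submitters' processing notes. Their versions, the annotation and the strand setting are not stated in the labels, so reads of overlapping or antisense genes and of near-identical copies cannot be told apart. Full-length cDNA was amplified and no molecular identifiers are mentioned, per the labels' protocols, so counts are reads and not molecules.

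All genes were fitted with edgeR 4.0.16 in R 4.3.3 (filterByExpr, TMM, quasi-likelihood F test, 3 saline against 3 poly(I:C) libraries, no covariate), with p-values adjusted over all genes tested and calls at an adjusted p under 0.05. A standard error is |log2 difference| over the square root of F. Per-library log2 values used a pseudocount of 0.5 CPM. Chi-square per gene between replicates was 22.5 to 122, above sampling noise. Alternatives were other scalings and filters, DESeq2 1.42.0, limma-voom (limma 3.58.1) with quality weights, a replicate block and leaving out libraries; the group separations without libraries and the alternatives for the further genes were added after seeing the data. The script was checked on simulated data with 50 genes changed at each fold. The test recovered 1 of 50 at 1.5-fold, 16 of 50 at 2-fold and 44 of 50 at 4-fold. At differences as small as those of the folding genes, a missing call therefore says little. The changed genes were drawn at random from all genes that passed the filter, whatever their level. Recovery among genes as abundant as the folding genes was not measured and may differ. The 33 genes, the further lists and the tests were chosen with earlier results of these data known. Every one of the 33 genes was described, and from each further list the rule allowed up to 4 genes with the smallest p. A gene that this rule picks is not reported here.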

Additional observations from a re-analysis of the deposited data

How the results depend on the processing

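Genes called among the 33 numbered 1 higher and 0 lower as reported. Higher calls were 5 with upper-quartile and 5 with total-count scaling, 4 with the filter of 5 CPM in 3 libraries, 11 with DESeq2, 14 with limma-voom (and 1 lower), and 8 without the first library of each group (saline replicate 1 with poly(I:C) replicate 1). Leaving out 1 library gave 0 to 1. Among all tested genes, 167 were higher with upper-quartile scaling, 155 with total-count scaling and 146 with the filter of 5 CPM in 3 libraries. Over all genes, 130 were higher and 11 lower as reported, 577 and 566 with DESeq2, 1268 and 1608 with limma-voom, 18 lower with no filter, 355 and 214 without both libraries, and 51 to 167 higher and 0 to 20 lower without 1 library, with 66 higher without saline replicate 2, 53 without saline replicate 3 and 51 without poly(I:C) replicate 3. The replicate numbers did not pair the libraries (correlations of same-numbered deviations 0.148, −0.091 and 0.246, and not every library correlated best with its own number). With a replicate block 3 of the 33 were higher and 0 lower, where 171 of all genes were higher and 89 lower. The median of the 27 genes outside the Atf4 branch was 0.24, and 0.20 to 0.32 without 1 library or without both. Scaling moved the median of all genes by under 0.1. Signs turned for 7 genes near 0 or of low count, and the cause was not tested. Asns was 0.45 with limma-voom, 0.50 without both libraries, and −1.19 to 0.77 without 1. Ddit3 was 0.011 with total counts. Derl1 was −0.017 with RLE, −0.0089 with no filter, −0.017 with DESeq2, and −0.037 to 0.073 without 1 library. Ern1 was −0.016 with RLE, −0.0081 with no filter, −0.016 with DESeq2, and −0.024 to 0.035 without 1. Ppp1r15a was −0.072 with limma-voom, −0.11 without both, and −0.15 to 0.17 without 1. Sec61b was 0.17 without both, and −0.37 to 0.19 without 1. Xbp1 was 0.10 without both, and −0.0090 to 0.097 without 1.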

Other observations

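Outside the 33 genes, 12 tested genes had the ER stress element in their promoter window. Of these, 0 were called, 4 had every poly(I:C) library above every saline library and 0 had every one below (over all tested genes 0.883% were called higher, 14.0% lay above and 14.3% below), and the median log2 difference was 0.35. Ero1b, an oxidase that recharges disulfide isomerases, was at 32.6 ± 3.59 and 40.3 ± 6.71 CPM, and Alg12, a mannosyltransferase of the ER, at 30.8 ± 3.90 and 35.7 ± 2.62 CPM (SD, n = 3 each). The 4 separated genes were Spats2l, Xlr3b, Xlr3c and Gm39859, named after their values were seen, of which Xlr3b was at 4.26 ± 0.97 and 10.3 ± 1.42 CPM (SD, n = 3 each, edgeR adjusted p = 0.0786). Xlr3a, Xlr3b and Xlr3c are close copies that can share reads, so the split between them is uncertain.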
